A study of Homo sapiens with 18 samples.

Results

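The cytosolic ribosome carries out protein synthesis in all cells, and each of its protein subunits is encoded by its own gene. Ribosomal proteins of the large subunit carry the prefix RPL, those of the small subunit RPS, and the acidic proteins RPLP0, RPLP1 and RPLP2 form the stalk that recruits translation factors. These genes are commonly among the most abundant messenger RNAs of a growing cell, and most of their transcripts begin with a run of pyrimidines, the 5′ terminal oligopyrimidine (TOP) feature, which couples their translation to mTOR signalling through LARP1. RPL5 and RPL11 also bind MDM2 when ribosome assembly is disturbed.

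The members were the 77 genes whose symbol was RPL or RPS followed by a number and at most an A or X, together with RPLP0, RPLP1, RPLP2 and RPSA. Pseudogenes were left out. They were 46 large-subunit and 31 small-subunit genes out of 60603 annotated genes. The rule read symbols only, but the family was picked for description with earlier results of these data known.

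Poly(A) RNA of MDA-MB-231, a basal-like human breast cancer cell line, was sequenced in 18 libraries, 2 for each of 9 conditions. The transient system (6 libraries) held controls without drug and a group that received doxorubicin (0.6 µM, 48 h). A further group, whose label names a FLAG-ZMYND8 transfection, had the same drug exposure. An interval of 24 h between transfection and drug is recorded for all 6 libraries. The titles of the control and doxorubicin libraries name no construct. In the inducible system (12 libraries) a GFP or a FLAG-ZMYND8 cDNA in the lentiviral vector pInducer20 was introduced stably under G418 selection and switched on with 250 ng/mL doxycycline, which stayed on, and 0.6 µM doxorubicin was added 4 h later for 6 or 48 h, or not at all. ZMYND8 is a chromatin reader that the study examined as a suppressor of drug resistance, and doxorubicin is an anthracycline that intercalates into DNA and poisons topoisomerase II. All 12 inducible libraries therefore shared doxycycline and selection, and because each construct was held in 1 line, construct and line cannot be told apart. Each line had 1 untreated group, which served both drug times. At least 1 of the 6 h and 48 h comparisons therefore also differed in hours of doxycycline. That difference cannot be told apart from doxorubicin. The labels call the 2 libraries of a condition biological replicates, and all p-values measure the spread between such libraries.

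The 12 inducible libraries held 18300628 to 23724398 gene counts. In the transient system doxorubicin replicate 2 held 24713822 counts and the other libraries 5729294 to 5972396. ZMYND8 itself stood at 829 to 1001 CPM (each library's counts scaled to a common depth by the trimmed mean of M values, TMM) in the 6 libraries of the ZMYND8 line against 93.8 to 209 in the 6 of the GFP line. In the transient libraries labelled ZMYND8 it stood at 160 and 125 CPM, below the 219 and 199 CPM of the control libraries, so no direction below is attributed to ZMYND8 in that system. Replicate 2 of the transient doxorubicin group and replicate 2 of the labelled ZMYND8 group were nearly the same library: chi-square divided by its degrees of freedom came to 1.39 for their counts, against 9.71 for the next closest transient pair. They were kept as labelled, because they carry different group labels, and the called members and medians against control are also given without them. Antisense genes lying within the exons of another gene carried 2.17 to 2.43 times its count density in the transient libraries and 0.264 to 0.313 times in the inducible ones, so the transient counts did not separate the strands. Of the basal-line markers, VIM ranged from 1922 to 4494 CPM and CD44 from 420 to 1344 CPM, while of 7 luminal markers ESR1, PGR and FOXA1 did not exceed 0.691, 0.799 and 1.15 CPM. The other luminal markers were present, with ERBB2 at 73.2 to 166 CPM, EPCAM at 6.89 to 44.5 CPM, GATA3 at 8.86 to 20.4 CPM and CDH1 at 0.58 to 21.6 CPM. Of 7 markers of other cell types, CD3E, VWF and PTPRC were at 0 in at least 1 library and reached at most 0.328, 1.73 and 3.95 CPM, and PDGFRB reached 40.1 CPM. After 48 h of doxorubicin 3 of these 5 were higher and 1 lower in GFP cells, beside 32.4% and 31.8% of all genes. In ZMYND8 cells 2 were higher and 1 lower, beside 31.6% and 30.8%. PTPRC, at low CPM, was up by 2.88 ± 0.38 on the log2 scale in GFP cells and by 4.30 ± 0.54 in ZMYND8 cells. The part of these markers in the results below was not tested.

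The start sites of the genes that the results turn on are shown first, because the annotated 5′ end is where the TOP feature lies. Of the 77 members, 62 had an annotated start in RefSeq (GRCh38.p14). At least 1 start of 46 of these 62 genes (74.2%) was a C followed directly by further C or T bases to a run of 5 or more, compared with 5.14% of all 27305 genes in the same table and with 8.7% of 69 mitochondrial ribosomal protein genes. Below, 10 bases before and 20 bases from the start are given on the gene's strand, with the run that opens at a C in capitals. A window with no capitals has no such run at the annotated base. For genes with several starts the one with the longest run is shown.

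RPL13, RPS16, RPS14 and RPL34 were among the 5 deepest called falls without overlap of libraries in GFP cells after 48 h, and RPL36 was among the 5 in ZMYND8 cells:

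RPL13 (chr16:89560672-89560701, + strand): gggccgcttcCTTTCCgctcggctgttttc
RPS16 (chr19:39435930-39435959, - strand): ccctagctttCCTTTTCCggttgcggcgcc
RPS14 (chr5:150449720-150449749, - strand): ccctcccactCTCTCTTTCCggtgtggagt
RPL34 (chr4:108620566-108620595, + strand): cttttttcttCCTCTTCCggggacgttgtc
RPL36 (chr19:5690285-5690314, + strand): cggcgccagcCCTTCCgccacggccgtctc

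RPL39 and RPL11 were higher in the ZMYND8 line, and RPS29 had the largest called difference between the lines' 48 h changes:

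RPL39 (chrX:119791611-119791640, - strand): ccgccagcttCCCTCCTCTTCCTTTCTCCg
RPL11 (chr1:23691796-23691825, + strand): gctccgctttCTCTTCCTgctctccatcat
RPS29 (chr14:49598691-49598720, - strand): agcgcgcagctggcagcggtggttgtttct

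RPL26 and RPL9 were called higher after 48 h in GFP cells (RPL26 not when pseudogene counts were added), and RPL41 and RPL6 showed no fall past the test there:

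RPL26 (chr17:8383174-8383203, - strand): gcgtgtagttCTCTTCCCTTTTgcggccat
RPL9 (chr4:39458903-39458932, - strand): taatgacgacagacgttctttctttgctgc
RPL41 (chr12:56116623-56116652, + strand): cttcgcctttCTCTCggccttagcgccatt
RPL6 (chr12:112411423-112411452, - strand): gtatcctcagtgaatcagaaccagaaaaag

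The 45 tested members with the run had a median log2 fold change of -0.61 (range -1.18 to 0.37) in GFP cells after 48 h, and the 16 tested members with a RefSeq start but no such run had -0.49 (range -0.92 to 0.47). The run was read only from the annotated base, so a run lying some bases away counted as none. RPL13 and RPL26, both with the run, stood far apart, at -1.18 and 0.29.

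Ribosomal protein genes made up 4.61% ± 0.0481 (SD, n = 2) of all counts in GFP cells, 4.44% ± 0.0113 after 6 h of doxorubicin and 3.6% ± 0.0891 after 48 h. In ZMYND8 cells the same share was 4.31% ± 0.0276 before the drug, 4.66% ± 0.0679 at 6 h and 4.77% ± 0.0502 at 48 h. The share thus fell over 48 h in the GFP line and rose in the ZMYND8 line, with no overlap between the libraries before and after in either. Counting only genes outside the mitochondrial genome left the order as it was, with 4.65%, 4.49% and 3.66% in GFP cells and 4.38%, 4.73% and 4.91% in ZMYND8 cells. The mitochondrial genome's own share rose beside this, from 0.893% and 0.947% to 1.66% and 1.71% in GFP cells and from 1.29% and 1.96% to 3.01% and 2.73% in ZMYND8 cells. These shares carry no test, since an exact permutation test of 2 libraries against 2 cannot go below p = 0.333. All shares are relative to the RNA sequenced, so fewer transcripts per cell and a different mix of cells cannot be told apart.

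**Figure D1:**
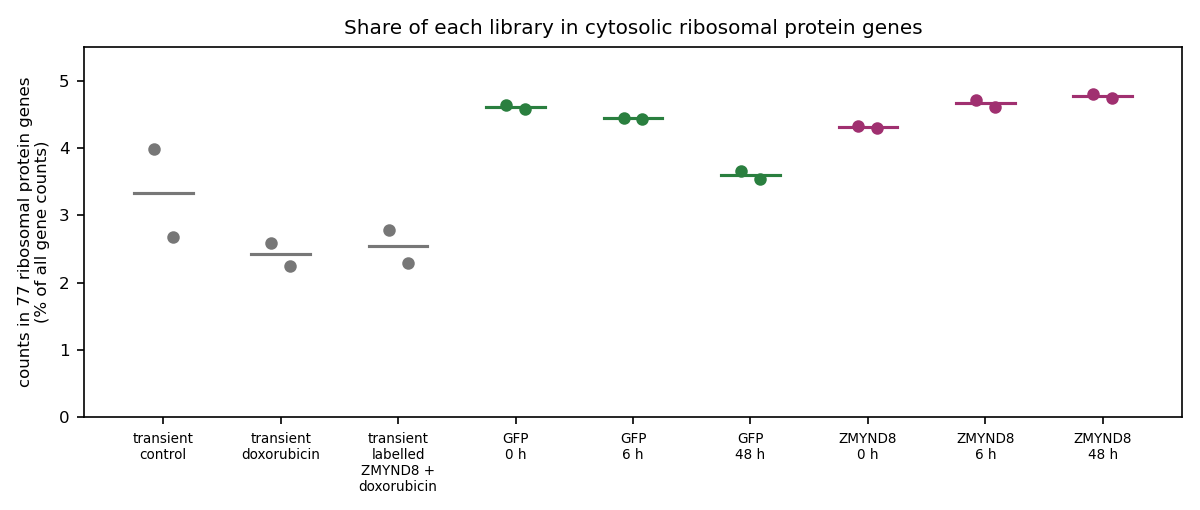
Counts in the 77 ribosomal protein genes as a percentage of all gene counts (y axis) in each of the 18 libraries, by condition (x axis; 0 h, 6 h and 48 h are times with doxorubicin); points are libraries and bars the means of 2. The GFP line drops from 4.61% to 3.6% over 48 h while the ZMYND8 line goes from 4.31% to 4.77%, and the 2 transient controls lie far apart at 3.99% and 2.68%.

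In the transient system the share was 3.99% and 2.68% in the control libraries, 2.59% and 2.25% after doxorubicin, and 2.79% and 2.29% in the treated libraries labelled ZMYND8. The 2 control libraries lay far apart. Across replicate numbers the groups overlapped, since a treated library labelled ZMYND8 held 2.79% and a control 2.68%. Within each replicate number both treated libraries lay below the control, but those of replicate 2 are the near-identical pair.

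Levels differed widely within the family. Among the members tested in the inducible lines the median was 572 CPM, against 12.98 CPM over all 18801 genes tested; 62 of the 77 members lay at or above the 90th percentile of those genes and 18 were among the 100 most abundant genes. Per kilobase of annotated exon, RPS12 of the small subunit was highest at 920 CPM per kb (mean of 12 libraries), followed by RPL13A at 757 CPM per kb and RPL8 at 586 CPM per kb, against a family median of 171 CPM per kb. The order of the 77 genes per kilobase was similar in the transient libraries (Spearman rho 0.95 across genes; the points share gene lengths and annotation).

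In both systems 2 of the 77 members failed the low-count filter. RPS18, at the bottom of that order, had at most 1 count in any library. RPS9, RPS10 and RPL36A passed with at most 93, 71 and 155 counts. Of 13 genes with more than 1000 exon bases within 80 kb of RPS18, 9 had 3 counts or fewer in every library, among them the prefoldin subunit gene PFDN6, and of 11 genes around RPS9 the same held for 9. RPS10 shared 40.3% of its exon bases with another gene on its strand, and reads in shared bases were not counted.

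The annotation held 1587 pseudogenes named for a member, led by RPL21 with 133. For 12 members the pseudogenes together had more counts in the inducible libraries than the gene itself, among them RPL39, RPS27, RPL21, RPL17 and RPL36A, whereas for 38 members they had fewer than 1 count per 100 of the gene. Between 15.03 and 16.6 pseudogene counts accompanied every 100 member counts in the inducible libraries. A value with these counts added to the member is given beside a result where the addition ended or made a call, turned the direction or moved a value by over 1.5 times; of 143 named values 6 turned, 2 lost a call and 1 gained one.

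The first comparison in the inducible lines set GFP cells with doxorubicin against untreated GFP cells. After 6 h the family barely moved. A gene is called here where its adjusted p from edgeR (quasi-likelihood, Benjamini-Hochberg over all 18801 genes) was 0.05 or less. Of 75 tested members 7 were higher and 16 lower, beside 47.9% of all genes called (22.1% higher and 25.8% lower). Without the low-count filter 12 were higher and 8 lower, and with pseudogene counts added 5 and 21. The member median was -0.04 on the log2 scale, beside -0.05 for all genes.

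RPL9, a protein of the large subunit, stood at 24.6 and 20.8 CPM before the drug and at 42.5 and 38.0 CPM after 6 h, and its log2 fold change of 0.82 ± 0.08 (SE) was the largest rise (adjusted p = 2.1e-09). RPL17 rose by 0.39 ± 0.12 (adjusted p = 0.0059) and RPL26 by 0.34 ± 0.10 (adjusted p = 0.008), calls lost without GFP replicate 2 at 0.35 and 0.20, and for RPL26 also without 6 h replicate 1 at 0.28. Neither was called with pseudogene counts added, at -0.06 for RPL17 and 0.10 for RPL26. RPL6 rose by 0.26 ± 0.04 (adjusted p = 2e-06) and RPS26 by 0.25 ± 0.07 (adjusted p = 0.0026). The deepest falls were those of RPS29, from 327 and 304 CPM to 236 and 248 CPM (log2 -0.38 ± 0.06, adjusted p = 1.4e-05), and of RPL13, from 1468 and 1453 CPM to 1238 and 1208 CPM (-0.26 ± 0.04, adjusted p = 2.1e-06). The libraries before and after did not overlap for any of these genes.

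After 48 h in GFP cells the family fell nearly as a whole. Of 75 tested members 67 were lower and 4 higher, beside 64.2% of all genes (32.4% higher and 31.8% lower). The member median was -0.59 on the log2 scale, a 0.664-fold level, against 0.03 for all genes. The fall included both subunits: 40 of 46 large-subunit and 27 of 29 small-subunit genes tested were lower, with medians of -0.56 and -0.66. Scaling by library totals moved the median of all genes to 0.27 and that of the members to -0.34; relative to all genes the members then stood at -0.62.

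RPL13, a large-subunit protein, led the falls. It stood at 1468 and 1453 CPM before and at 663 and 630 CPM after 48 h, a log2 fold change of -1.18 ± 0.04 (adjusted p = 1e-19). RPL37 went from 956 and 923 CPM to 450 and 430 CPM (-1.09 ± 0.04, adjusted p = 5.1e-19). For both genes the 48 h libraries lay far below the untreated ones. RPS9, with few counts, was called at -1.08 ± 0.43 (adjusted p = 0.031), but its libraries overlapped.

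RPS16 fell from 635 and 637 CPM to 320 and 300.1 CPM (-1.03 ± 0.04, adjusted p = 3.9e-18). RPS14, whose loss in the 5q deletion impairs red cell formation, fell from 865 and 859 CPM to 423 and 419 CPM (-1.03 ± 0.04, adjusted p = 2.2e-18). RPL34 fell from 241 and 233 CPM to 121 and 115 CPM (-1.01 ± 0.04, adjusted p = 3.2e-17). In all 3 the treated libraries lay far below the untreated ones.

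Among the members fixed for their roles, RPL3, which lies close to the peptidyl transferase centre, fell by 0.88 ± 0.04 on the log2 scale, and RPL10, which joins the large subunit late, by 0.63 ± 0.04. The MDM2-binding proteins RPL5 and RPL11 fell by 0.76 ± 0.04 and by 0.52 ± 0.04. Of the stalk proteins, RPLP0 fell by 0.62 ± 0.03, RPLP1 by 0.70 ± 0.05 and RPLP2 by 0.63 ± 0.06. In the small subunit RPS6, the substrate of S6 kinase, fell by 0.70 ± 0.04, RPS3, at the messenger entry channel, by 0.61 ± 0.04, the X-linked RPS4X by 0.72 ± 0.04, and RPS27A, made as a fusion with ubiquitin, by 0.68 ± 0.05. RPSA (-0.44 ± 0.04), RPL22 (-0.37 ± 0.05) and RPS19 (-0.24 ± 0.04; 0.0027 under library totals), the gene most often mutated in Diamond-Blackfan anaemia, had smaller values. RPL39, which lines the exit tunnel, fell by 0.53 ± 0.09. The adjusted p of each was 1.6e-05 or lower.

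A few genes did not follow. RPL9 was higher after 48 h, at 30.1 and 32.7 CPM (0.47 ± 0.08, adjusted p = 1.7e-05). RPL17 (0.34 ± 0.11), RPL26 (0.29 ± 0.10) and RPS26 (0.16 ± 0.06) were also called higher, with adjusted p of 0.011, 0.014 and 0.033. The last 3 calls did not hold without GFP replicate 2, at 0.28, 0.14 and 0.11, and without 48 h replicate 1, at 0.22, 0.27 and 0.17; that of RPS26 was lost on leaving out either library of each pair, with values of 0.11 to 0.19. With pseudogene counts added to each member, 73 members were lower and 2 higher: RPL17 was then called lower at -0.44, RPL26 stood at -0.14 without a call, and RPL9 (0.36) and RPS26 (0.15) were still called higher. RPL41, the shortest ribosomal protein, stood at 245 and 280.1 CPM before and at 237 and 268 CPM after (-0.06 ± 0.06, adjusted p = 0.45); without GFP replicate 1 it was called lower at -0.16, as it was with pseudogene counts added (-0.15), and it turned to 0.19 under scaling by library totals.

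The second comparison did the same in ZMYND8 cells. After 6 h, 61 of 75 members were higher and 0 lower (beside 40.8% of all genes called, 21.8% higher and 19% lower), with a median of 0.21 against -0.01 for all genes. Under library totals 45 members were higher and 0 lower, with a median of 0.12. The rises were small: RPL9 led with 0.67 ± 0.08 (27.4 and 26.6 CPM before, 43.7 and 42.0 CPM after; adjusted p = 7.3e-08), followed by RPS26 at 0.42 ± 0.06 (adjusted p = 4.4e-06), RPL28 at 0.35 ± 0.06, RPS13 at 0.35 ± 0.05 and RPS15 at 0.34 ± 0.04.

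After 48 h the family as a whole stayed near its starting level in ZMYND8 cells, with 27 members higher, 31 lower and 17 not called (beside 62.3% of all genes called, 31.6% higher and 30.8% lower). The median was -0.03, against 0.05 for all genes. The sign depended on the scaling: under library totals the median was 0.18 with 46 members higher and 6 lower, since that scaling moved all genes to 0.25; relative to all genes the members stood at -0.07 under library totals. Large- and small-subunit medians were -0.01 and -0.06.

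RPL13 was again the deepest fall, from 895 and 861 CPM to 541 and 564 CPM (-0.67 ± 0.04, adjusted p = 2.1e-14). RPS16 fell from 584 and 605 CPM to 406 and 393 CPM (-0.57 ± 0.04, adjusted p = 1e-12), and RPL36 from 375 and 435 CPM to 293 and 273 CPM (-0.52 ± 0.05, adjusted p = 3.4e-09). RPL3 (-0.45 ± 0.04) and RPLP0 (-0.33 ± 0.03) completed the 5 deepest. In the GFP line the values of all 5 were lower still.

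RPL9 rose to 47.5 and 46.2 CPM (0.80 ± 0.08, adjusted p = 6.1e-10), RPL26 to 70.3 and 61.3 CPM (0.65 ± 0.09, adjusted p = 4.1e-07) and RPL17 to 16.6 and 16.7 CPM (0.64 ± 0.11, adjusted p = 1.1e-05). RPS27 rose from 99.3 and 105 CPM to 147 and 141 CPM (0.50 ± 0.05, adjusted p = 2.4e-09). RPL41 rose from 270 and 246 CPM to 373 and 346 CPM (0.48 ± 0.06, adjusted p = 9.5e-08), and RPL39 rose by 0.34 ± 0.08 (adjusted p = 0.00066). RPL36A, at 2.18 and 1.53 CPM before and 3.17 and 3.11 CPM after, was called at 0.77 ± 0.26 (adjusted p = 0.013), a call lost without ZMYND8 replicate 2 (0.51) and without 48 h replicate 1 (0.75). With pseudogene counts added, RPL26 stood at 0.39, RPL17 at 0.15 and RPL39 at 0.10, the last no longer called, while RPL36A was called lower at -0.12. RPL22, called higher at 0.12 ± 0.05 (adjusted p = 0.026), stood at -0.04 without a call when they were added, and lost its call without any 1 of the 4 libraries (0.09 to 0.13).

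**Figure D2:**
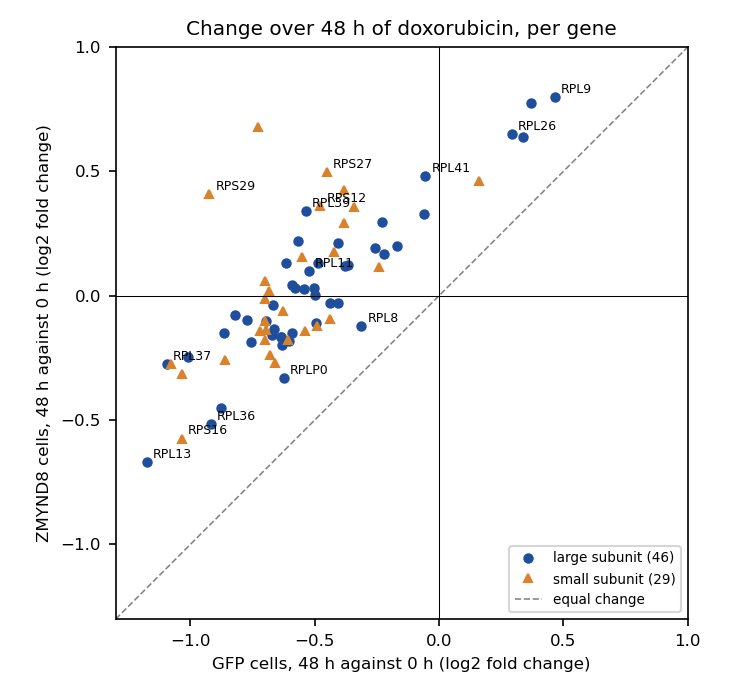
Log2 fold change of each of the 75 tested ribosomal protein genes after 48 h of doxorubicin in GFP cells (x axis) and in ZMYND8 cells (y axis), edgeR with TMM scaling; circles are large-subunit and triangles small-subunit genes, and the dashed line marks equal change. All 75 points lie above that line, and RPL13 is lowest and RPL9 highest in both lines.

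The 2 lines shared no library, so their changes can be set side by side. In both, 31 members were called lower, and 36 called lower in GFP cells were not called lower in ZMYND8 cells; 20 of those 36 were called higher there. The matching joint counts over all genes were not taken. Singly, 31.8% of all genes were called lower in GFP cells, and 30.8% lower and 31.6% higher in ZMYND8 cells. RPL9, RPL17, RPL26 and RPS26 were called higher in both, which for RPL17 and RPL26 did not hold in GFP cells with pseudogene counts added. Across the 75 genes the changes were correlated (Pearson r = 0.785, Spearman rho = 0.728, a description across genes that share length, annotation and abundance).

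The difference between the lines' 48 h changes was tested directly as an interaction. It was positive for all 75 tested members and called for 71, with 0 called negative, beside 28.6% of all genes called, 12.7% positive and 15.8% negative. The median was 0.53 on the log2 scale, a 1.445-fold difference in the ratio of 48 h to 0 h, against -0.01 for all genes; under library totals it was 0.49 with 68 called. The 4 not called were RPS10, RPS9, RPL17 and RPL36A, at 1.41, 0.80, 0.30 and 0.40, the 4 with the lowest CPM per kilobase of the 75 tested in these lines. With pseudogene counts added 74 were called positive, and RPL26 stood at 0.54.

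RPS29 showed the largest difference among those called (1.33 ± 0.09, adjusted p = 1.7e-11). It fell from 327 and 304 CPM to 173 and 159 CPM in GFP cells while it rose from 197 and 220.4 CPM to 284 and 270.1 CPM in ZMYND8 cells, so the lines crossed. RPS27 differed by 0.95 ± 0.07 (adjusted p = 1.9e-10), with 75.3 and 68.2 CPM at 48 h in GFP cells against 147 and 141 CPM in ZMYND8 cells. RPL39 differed by 0.88 ± 0.12 (adjusted p = 3.4e-06), RPS12 by 0.84 ± 0.06 (adjusted p = 1.4e-10) and RPL37 by 0.82 ± 0.05 (adjusted p = 8e-12).

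The role members lay between 0.29 and 0.62 except for RPL39. The lowest were RPLP0 (0.29 ± 0.05), RPSA (0.34 ± 0.06), RPL26 (0.36 ± 0.14) and RPS19 (0.36 ± 0.06); the highest were RPL11 (0.62 ± 0.06), RPS6 (0.60 ± 0.05) and RPLP1 (0.595 ± 0.070). The call of RPL26 (adjusted p = 0.049) did not stand under library totals (0.32), DESeq2 size factors (0.34) or DESeq2 (0.34), with the replicate number as a block (0.35) or when any of GFP replicate 1 (0.19), GFP 48 h replicates 1 and 2 (0.37 and 0.34), ZMYND8 replicate 1 (0.19) or ZMYND8 48 h replicate 1 (0.26) was left out.

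**Figure D3:**
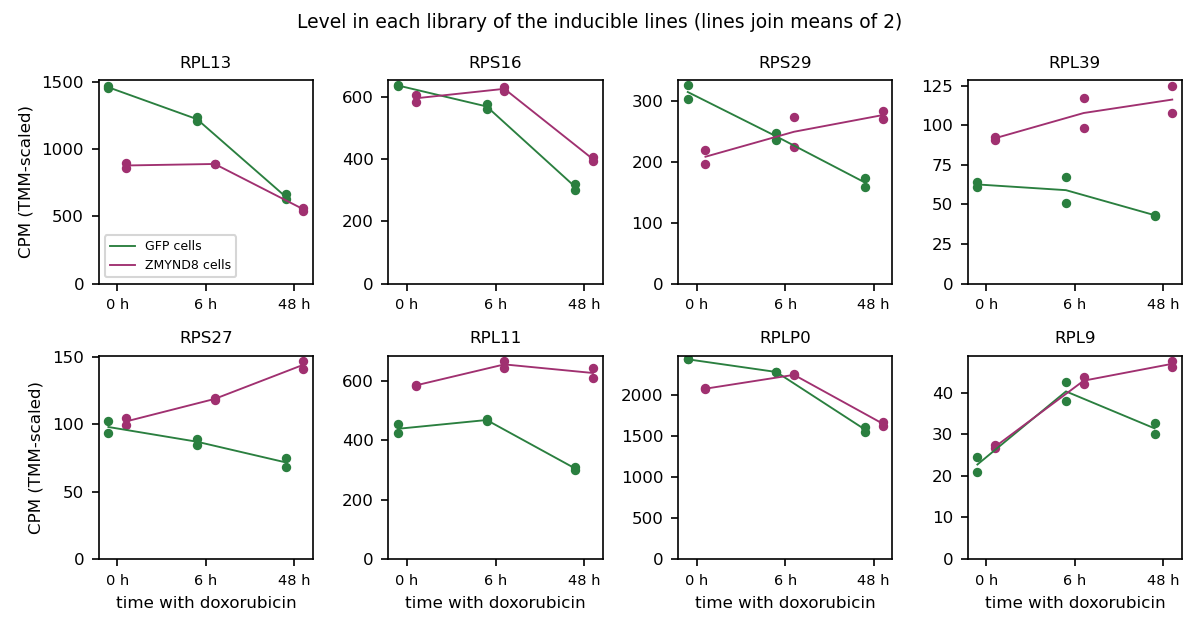
TMM-scaled CPM (y axes, from 0) of 8 ribosomal protein genes in each library of the GFP line (green) and the ZMYND8 line (magenta) at 0, 6 and 48 h of doxorubicin (x axes); points are libraries and lines join means of 2. RPS29 crosses between the lines, RPL39 and RPL11 stay higher in the ZMYND8 line throughout, and RPL13 falls in both.

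Before doxorubicin the lines already differed. Compared with GFP cells, ZMYND8 cells had 39 members lower and 14 higher (beside 58.3% of all genes called, 28.7% higher and 29.5% lower), with a median of -0.12 against 0.00 for all genes. RPL13 was lowest relative to GFP cells, at 895 and 861 CPM against 1468 and 1453 CPM (-0.73 ± 0.04, adjusted p = 2.5e-15). RPS29 (-0.59 ± 0.06), RPL37 (-0.56 ± 0.04), RPL15 (-0.54 ± 0.04) and RPL5 (-0.51 ± 0.04) followed.

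Among the better-counted genes that were higher, RPL26 stood at 36.9 and 46.5 CPM against 30.2 and 24.4 CPM (0.62 ± 0.10, adjusted p = 5.7e-06), RPL39 at 91.1 and 92.8 CPM against 61.0 and 64.4 CPM (0.55 ± 0.09, adjusted p = 4e-06) and RPL11 at 582 and 587 CPM against 453 and 424 CPM (0.41 ± 0.04, adjusted p = 1.4e-09), and RPL21 was higher by 0.52 ± 0.07. RPL36A, at 0.82 ± 0.31 (adjusted p = 0.027), lost its call without GFP replicate 1 (0.72), GFP replicate 2 (0.92) or ZMYND8 replicate 1 (0.58). Adding pseudogene counts put RPL26 at 0.35 and RPL36A at 0.49, both still called. RPL5 and RPL11, partners in the same assembly particle, thus differed between the lines in opposite directions.

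At 6 h, 35 members were higher and 9 lower in ZMYND8 cells (beside 55.5% of all genes called, 28.9% higher and 26.6% lower), with a median of 0.10; under library totals the split was 29 higher and 13 lower. RPL39 led at 0.87 ± 0.09 (adjusted p = 2.1e-09), followed by RPL8 at 0.59 ± 0.05, RPL21 at 0.57 ± 0.07, RPS2 at 0.51 ± 0.04 and RPS19 at 0.50 ± 0.04. RPL13 (-0.46 ± 0.04) and RPL15 (-0.36 ± 0.03) were the lowest of those called.

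At 48 h, 69 members were higher in ZMYND8 than in GFP cells and 2 lower, beside 60% of all genes called, 28.4% higher and 31.6% lower. The median was 0.44, a 1.36-fold level, against -0.04 for all genes. RPL39 stood at 125 and 108 CPM against 42.9 and 43.6 CPM (1.43 ± 0.09, adjusted p = 7.6e-14), RPL11 at 644 and 608 CPM against 301 and 309 CPM (1.04 ± 0.04, adjusted p = 1.2e-17) and RPS27 at 147 and 141 CPM against 75.3 and 68.2 CPM (1.01 ± 0.05, adjusted p = 2.7e-15). For each of these 3 genes the ZMYND8 libraries lay well above the GFP libraries. RPL36A (1.22 ± 0.27, adjusted p = 0.0003) and RPS10 (1.08 ± 0.45, adjusted p = 0.041) rested on few counts, and the call of RPS10 was lost without GFP 48 h replicate 2 (0.76), without ZMYND8 48 h replicate 1 (0.97) and without ZMYND8 48 h replicate 2 (1.18). RPS10 was called lower, at -0.36, once pseudogene counts were added.

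RPL13 (-0.23 ± 0.04, adjusted p = 1.1e-05) and RPL15 (-0.15 ± 0.03, adjusted p = 0.00063) were the 2 lower genes, and RPLP0 (0.06 ± 0.03), RPL5 (0.06 ± 0.04), RPS7 (0.01) and RPS9 (0.36) were not called. This comparison, the interaction and the GFP time course share the GFP libraries at 48 h.

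**Figure D4:**
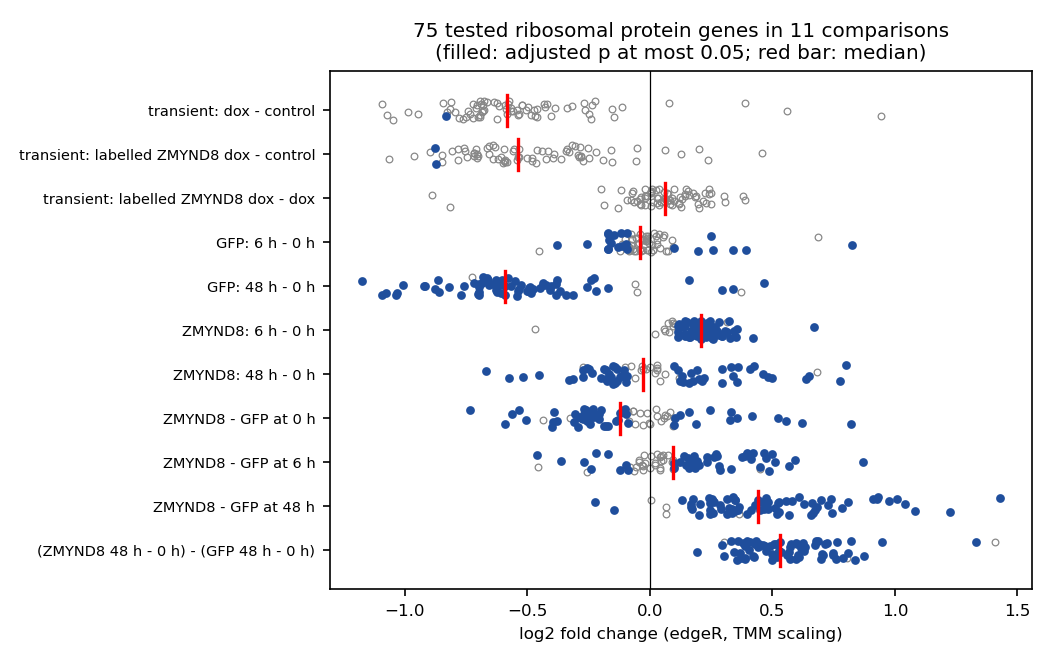
Log2 fold change (x axis; edgeR with TMM scaling) of the 75 tested ribosomal protein genes in 11 comparisons (y axis); filled points have an adjusted p of at most 0.05, open points do not, red bars mark the medians and the vertical scatter within a row is only for display. The median lies at -0.59 in GFP cells at 48 h, at -0.03 in ZMYND8 cells at 48 h and at 0.53 for the difference between these changes.

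To see which genes moved apart from the family, the libraries were also scaled on the members alone, so that the family as a whole was set to no change. In GFP cells at 48 h, 23 members then lay above and 24 below the family, and in ZMYND8 cells 27 above and 29 below, beside 72.4% and 61.4% of all genes called under the same scaling. RPL13 lay below by 0.60 ± 0.04 and by 0.66 ± 0.04 in the 2 time courses, and RPL9 above by 1.04 and 0.80. In the interaction 14 lay above and 16 below (beside 56.2% of all genes), with RPS29 at 0.77 (adjusted p = 3e-09), RPS27 at 0.38 and RPLP0 at -0.27. Scaling on the members also shifts every other gene by the family's own change. The all-gene shares are therefore unlike those under TMM scaling, where the interaction share was 28.6%, and are no background for the members. Before the drug 25 lay above and 23 below in ZMYND8 relative to GFP cells (beside 58.8%), with RPL39 at 0.68 and RPL13 at -0.60; at 48 h 23 lay above and 28 below (beside 67%), with these genes at 0.99 and -0.66. The standard deviation of the members around the family was 0.33 in GFP cells and 0.30 in ZMYND8 cells at 48 h, on the log2 scale.

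**Figure D5:**
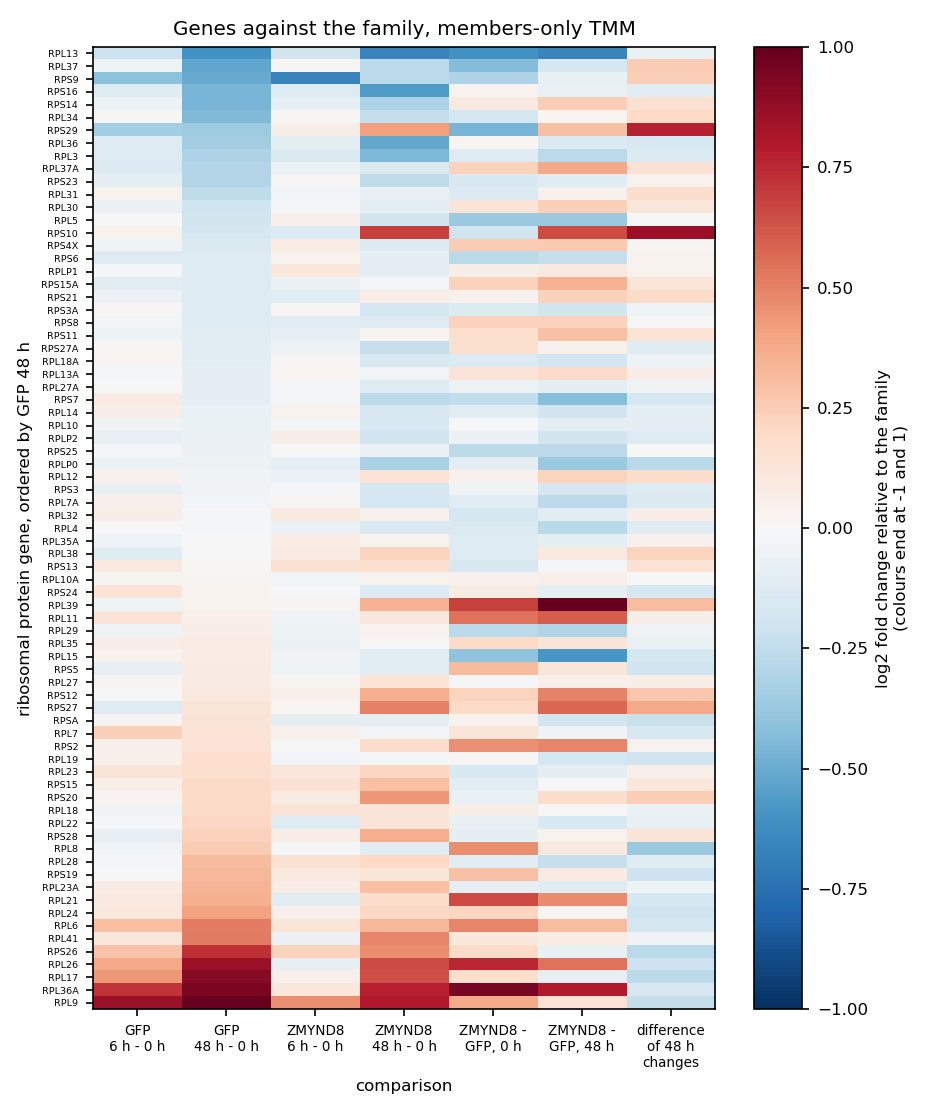
Log2 fold change relative to the family (colour; scaled on the members alone, colours end at -1 and 1) of the 75 tested ribosomal protein genes (rows, ordered by GFP cells at 48 h) in 7 comparisons of the inducible lines (columns). RPL13 is below the family by 0.60 in GFP cells and by 0.66 in ZMYND8 cells at 48 h, RPL9 is above it by 1.04 and 0.80, and RPS29 stands out in the last column at 0.77.

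Pearson r with the 48 h change in GFP cells was -0.22 for transcript length, -0.13 for GC content and -0.23 for level per kilobase across 75 genes; in ZMYND8 cells it was -0.26, -0.19 and -0.42. Over the other tested genes the level had r = -0.42 and -0.46 in the same comparisons. These are descriptions across genes of shared libraries.

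In the transient system the family lay lower after doxorubicin but seldom passed the test. Doxorubicin against control gave 1 member lower and 0 higher, RPS3A, beside 5.13% of all 15697 genes called (2.98% higher and 2.15% lower), with a median of -0.58 against 0.00 for all genes and 71 of 75 values below 0. RPS3A stood at 428 and 398 CPM in the controls and at 231 and 233 CPM after the drug (-0.83 ± 0.19, adjusted p = 0.035); its call was lost without control replicate 1 (-0.80) and without either treated library (-0.83 and -0.84). RPL13 stood at 1931 and 1242 CPM in the controls and at 844 and 642 CPM after the drug, and at -1.09 ± 0.29 it did not pass (adjusted p = 0.055). At an unadjusted p of at most 0.05, 34 members were lower, beside 10.9% of all genes.

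The libraries labelled ZMYND8 and treated with doxorubicin were compared with the same controls: 2 members, RPL5 (409 and 421 CPM against 875 and 651 CPM in the controls; -0.88 ± 0.22, adjusted p = 0.035) and RPS3A (-0.87 ± 0.19, adjusted p = 0.024), were lower, beside 6.82% of all genes called (3.85% higher and 2.97% lower), with a median of -0.54. The call of RPL5 was lost without control replicate 1 (-0.67) and without either treated library (-0.86 and -0.92), and so was that of RPS3A (-0.83, -0.82 and -0.95). Against doxorubicin alone 0 members and 0 genes in all were called in edgeR (0%). At an unadjusted p of at most 0.05 there were 0 members and 54 genes (0.344%). DESeq2 also called 0 members, and the median was 0.06. Each of these 2 groups holds 1 library of the near-identical pair. The lack of calls and the median therefore cannot be read as a lack of difference.

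These values depended on the 2 control libraries. Without control replicate 1 the member medians were -0.20 and -0.15 with 0 called, beside 1.22% and 2.43% of all genes called lower; without control replicate 2 they were -0.92 and -0.84 with 24 and 19 called lower, beside 2.31% and 2.39% of all genes. A block for the replicate number gave 36 and 33 members called lower, with medians of -0.55 and -0.50, beside 7.81% and 8.84% of all genes called lower. Leaving out replicate 2 of both treated groups, the near-identical pair, left 0 members called in either comparison, with medians of -0.44 and -0.42 and with 0.511% and 1.4% of all genes called lower. Adding pseudogene counts gave 4 and 3 members called lower.

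The genes with the deepest values after 48 h were partly shared between systems that have no library in common. RPL13, RPL37, RPS16, RPL34 and RPS14 held the 5 lowest values in the transient doxorubicin comparison and, leaving aside the sparsely counted RPS9, in GFP cells at 48 h. Across 75 genes the 2 sets of changes had Pearson r = 0.46 and Spearman rho = 0.63, a description across genes that share length, annotation and abundance.

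The other genes of the translation machinery were taken from lists. Translation factors with TOP messengers moved with the family in GFP cells, where 16 of 18 tested were lower and 0 higher at 48 h (median -0.40), led by TPT1 at -1.17 ± 0.04, EIF3E at -1.12 ± 0.04 and the elongation factor EEF1A1 at -1.09 ± 0.03. In ZMYND8 cells 14 were lower and 0 higher (median -0.18), and 13 of 18 had a positive interaction with 1 negative (median 0.27), among them EIF4B at 0.54 ± 0.06. Over all genes 31.8% were lower at 48 h in GFP cells, 30.8% lower in ZMYND8 cells and 12.7% positive in the interaction. Of 6 basal-line markers, all 6 were lower at 48 h in each line, with medians of -0.79 in GFP and -0.58 in ZMYND8 cells. Of 7 luminal markers 3 were higher and 2 lower in GFP cells and 4 higher and 2 lower in ZMYND8 cells, with CDH1 up by 3.88 ± 0.23 and by 2.31 ± 0.15 on the log2 scale; the part of these shifts in the results was not tested.

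Ribosome assembly factors did not follow the same course in GFP cells. In ZMYND8 cells at 6 h they rose as the members did, with 78 of 81 higher and 0 lower (median 0.53). All-gene shares there were 21.8% higher and 19% lower. At 48 h in that line 48 were higher and 13 lower (median 0.198), beside 31.6% and 30.8% of all genes. Of 81 tested, 77 were higher and 0 lower in GFP cells at 6 h (median 0.77), beside 22.1% and 25.8% of all genes, when the ribosomal proteins barely moved, led by RRS1 at 1.64 ± 0.08, URB2 at 1.61 ± 0.07 and RRP12 at 1.501 ± 0.058. At 48 h 50 were higher and 14 lower (median 0.26), beside 32.4% and 31.8% of all genes, and in the interaction 9 were positive and 25 negative (median -0.06), beside 12.7% and 15.8%, led by BOP1 at -0.94 ± 0.08. Of 17 genes of RNA polymerase I, which makes the ribosomal RNA, and its factors, 11 were higher and 1 lower at 6 h in GFP cells. The shares over all genes were 22.1% and 25.8%. At 48 h there 9 were higher and 4 lower, beside 32.4% and 31.8% of all genes. In ZMYND8 cells at 6 h 14 were higher and 0 lower, beside 21.8% and 19%. The list includes POLR2F, POLR2H and POLR2K, so it is not limited to genes named for polymerase I. Of the 7 chaperones that escort ribosomal proteins, 6 were higher and 0 lower at 6 h in GFP cells, led by GRWD1 at 1.26 ± 0.05. All-gene shares were again 22.1% and 25.8%.

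The 75 tested proteins of the mitochondrial ribosome had 29 genes higher and 20 lower in GFP cells at 48 h (median 0.05), near the 32.4% and 31.8% of all genes, with 16 positive and 4 negative in the interaction (median 0.09), beside 12.7% and 15.8% of all genes. RPL22L1, a paralogue of RPL22 outside the symbol rule, was 1.01 ± 0.07 higher in ZMYND8 than in GFP cells at 48 h. Among 26 regulators of translation, 5 were higher and 12 lower in GFP cells at 48 h, where 64.2% of all genes were called; LARP1, the TOP-binding repressor, fell by 0.595 ± 0.040 in GFP cells and by 0.86 ± 0.04 in ZMYND8 cells.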

How the data were processed

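The libraries were analysed as raw gene counts in 2 tables, 1 per overexpression system. Per the file headers, the authors deposited counts made with featureCounts 1.6.4 on paired reads, over GENCODE 31 exons with reverse-strand counting. The study's methods name TopHat with Bowtie2 on hg38, while the submitters' processing notes name Trim Galore, HISAT2, featureCounts and DESeq2. Reads mapping to several places or overlapping several genes are left out by default, which lowers genes with close copies.

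Each system was fitted with edgeR 4.0.16 in R 4.3.3 (quasi-likelihood test, TMM scaling, filterByExpr; 15697 transient and 18801 inducible genes), all its conditions in 1 model and Benjamini-Hochberg adjustment over all genes tested; values are called at an adjusted p of at most 0.05. SE was derived from the F statistic. DESeq2 1.42.0 was an alternative. The fit was tested on simulated data: the share of false calls lay below the nominal adjusted p threshold in the transient comparison simulated and above it in the inducible one, so adjusted p values and called counts in the inducible lines may be too generous. Depth was 5729294 to 24713822 counts per library, and n was 2 per condition. Replicate numbers were checked for pairing: deviations from group means correlated at 0.21 to 0.41 between same-numbered transient libraries and at -0.0812 to 0.0225 in the inducible ones, and the transient block values stand beside their results. The members and lists were chosen with earlier results of these data known. Named genes were, per comparison, up to 5 largest rises and 5 largest falls among called members whose libraries did not overlap, plus 17 members fixed for their roles and members failing the filter; RPL13 in the transient comparison, genes not called, the genes shown by sequence, RPL22L1 and LARP1 were chosen after their values were seen. Results for some genes are not reported here. Alternatives chosen after seeing the data were members summed with their pseudogenes, leaving out the near-identical transient pair, and 66 members with many own counts. The others were library totals, DESeq2 size factors, TMM without members, DESeq2, no low-count filter, a replicate block and each library left out. Shares of all genes are those of the main setting unless another is named with them. Member counts under the other settings therefore have no matching share.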

Additional observations from a re-analysis of the deposited data

Results flagged for a closer look

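The difference between the 48 h changes of the ZMYND8 and GFP lines was called for 71 of 75 tested members in edgeR's interaction test. Over all genes 28.6% were called, 12.7% positive and 15.8% negative. The members' calls are why these genes are listed. Among the members called, the interaction on the log2 scale was largest for RPS29 (1.33), RPS27 (0.95), RPL39 (0.88), RPS12 (0.84) and RPL37 (0.82). It was 0.62 for RPL11, 0.60 for RPS6, 0.595 for RPLP1, 0.58 for RPS4X, 0.57 for RPL5, 0.54 for RPL41 and 0.49 for RPL22. For RPL10 it was 0.47, for RPS27A 0.44, for RPS3 0.43, for RPLP2 0.43 and for RPL3 0.43. For RPS19 it was 0.36, for RPL26 0.36, for RPSA 0.34 and for RPLP0 0.29. The call of RPL26 did not stand under several alternative settings, as given above. Each construct was held in 1 line, so the part of the line in these differences cannot be told apart from that of ZMYND8.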

How the results depend on the processing

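Under alternative settings the inducible counts of called members, higher and lower together, stayed within 1.5 times their values. The exception was 6 h in GFP cells with a library left out. Directions were less stable: in ZMYND8 cells at 48 h most called members were higher under library totals, as given above. In the transient system doxorubicin against control called 1 member; library totals gave 0, DESeq2 14, no low-count filter 17, the replicate number as a block 36, pseudogenes summed in 4, and leaving out the near-identical replicate 2 of both treated groups 0. For the libraries labelled ZMYND8 (2 called) the values were 13 with DESeq2, 19 without the filter, 33 with the block and 0 without that pair; with the block 2 members departed from the family in place of 0. Leaving out single libraries gave 0 to 24 and 0 to 19 called, medians of -0.92 to -0.20 and -0.84 to -0.15, and 0 to 1 departing in the second; between the treated groups the median ran from -0.12 to 0.22. Leaving out single inducible libraries gave 18 to 29 members departing from the family in the interaction (30 in all) and 6 to 13 at 6 h in ZMYND8 cells (11 in all). Library totals moved the median to -0.34 in GFP cells at 48 h, to 0.12 in ZMYND8 cells at 6 h and, with a change of sign, to 0.18 at 48 h. By their construction these shifts include that of all genes. Under the same totals RPL41 turned to 0.19 and RPS19 to 0.0027 in GFP cells at 48 h, and in ZMYND8 cells RPL5 to 0.018, RPSA to 0.11, RPS6 to 0.10, RPLP2 to 0.0065, RPS3 to 0.029, RPLP1 to 0.10, RPS4X to 0.064 and RPL10 to 0.039; RPL41 turned to 0.0099 between the untreated lines. With a library left out RPL41 ran from -0.16 to 0.034 in GFP cells at 48 h, and between the untreated lines RPS27A ran from -0.012 to 0.072, RPL41 from -0.12 to 0.072 and RPLP1 from -0.14 to 0.0095. With pseudogene counts added RPL17 turned to -0.056 at 6 h and to -0.44 at 48 h in GFP cells and RPL26 to -0.14 at 48 h, in ZMYND8 cells at 48 h RPL22 turned to -0.042 and RPL36A to -0.12, and between the lines at 48 h RPS10 turned to -0.36. The replicate block changed the inducible counts by at most 1 member. The cause of the other changes was not tested. With 2 libraries a condition, the spread between the 2 transient controls limits that system.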
